A study of Mus musculus with 12 samples.

Results

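The genes described here act in the uptake of lipid from lipoproteins: Lpl, Lmf1, Gpihbp1, Angptl4, Angptl8, Cd36, Fabp4, Vldlr, Scarb1 and Mfsd2a. They were chosen by symbol, and all 10 were found, once each, among the 32285 genes of the deposited matrices. Single nuclei of mouse adipose tissue were profiled in 12 libraries, each of 1 depot, age and housing temperature. All mice were male C57BL/6J mice on normal chow. The depots carry the labels mPRAT, iBAT, lPRAT and iWAT, which the labels do not spell out. mPRAT and iBAT were sampled at 1, 2 and 6 months at 22 °C and at 6 months after 3 days at 4 °C. lPRAT was sampled at 2 and 6 months at 22 °C, and iWAT at 6 months at 22 °C and after 3 days at 4 °C. The titles say 6 months where the age field says 16 weeks, and the 1- and 2-month mice are given as 4 and 8 weeks old. How many animals each library pools is not stated. With 1 library in each of the 12 groups there is no replicate check, and each comparison is between 2 libraries, not between conditions. Cold, and 6 against 2 months, were also tested over the depots that have both libraries, with the depot as a block. Such a fit measures how far the depots agree and not the spread between mice. Intervals are 95% and cover counting error only.

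Lipoprotein lipase, encoded by Lpl, splits the triglyceride of chylomicrons and very low density lipoproteins into fatty acids. It is made mainly by adipocytes and muscle cells, matured in the endoplasmic reticulum with the help of Lmf1, and carried to the capillary lumen by Gpihbp1 on endothelial cells. Angptl4 inactivates the enzyme, mainly in fasted white fat, while Angptl8 is a relative of it that takes part in the control of the lipase. Cd36 takes up the fatty acids that are released, Fabp4 binds them in the cytosol, Vldlr and Scarb1 are lipoprotein receptors, and Mfsd2a carries lysophosphatidylcholine into cells.

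2 promoters are shown, because Angptl8 and Mfsd2a had the largest cold folds of the 10 genes in adipocyte-gated nuclei of mPRAT and iBAT. They are the 250 bases before the RefSeq start on GRCm38.p6, and 5 of the 10 genes had an entry (Lmf1, Angptl8, Cd36, Vldlr and Mfsd2a). The Angptl8 window is chr9:21835260-21835509 on the plus strand and the Mfsd2a window chr4:122961189-122961438 on the minus strand. Capitals mark the nuclear receptor motif AGGTCA and, read on the other strand, the CCAAT box.
Angptl8: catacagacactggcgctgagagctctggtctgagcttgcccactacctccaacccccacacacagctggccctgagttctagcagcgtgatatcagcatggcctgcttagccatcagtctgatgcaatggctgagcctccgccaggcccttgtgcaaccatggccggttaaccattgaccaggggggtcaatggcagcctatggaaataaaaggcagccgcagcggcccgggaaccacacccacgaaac
Mfsd2a: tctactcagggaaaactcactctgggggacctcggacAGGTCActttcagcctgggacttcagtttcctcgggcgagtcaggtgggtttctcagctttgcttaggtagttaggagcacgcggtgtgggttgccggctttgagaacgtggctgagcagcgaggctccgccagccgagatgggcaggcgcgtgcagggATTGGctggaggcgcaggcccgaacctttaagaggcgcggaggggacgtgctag

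In the Mfsd2a window AGGTCA lies at positions -213 to -208 and the CCAAT box at -54 to -50, counted from the start site. Both strands were searched for 8 motifs, and no letters of the Angptl8 window matched any of them. AGGTCA was present in 14% of all 32851 promoter windows of this length and CCAAT in 33.8%. The longer forms that contain AGGTCA were rarer: the motif of the estrogen-related receptors, TCAAGGTCA, was in 0.387% and the direct repeat DR1 in 0.0335%. The others were the cyclic AMP response element TGACGTCA in 1.55%, the E-box CACGTG in 6.02%, the sterol response element SRE in 0.192% and TATAAA in 12.4%. A match describes letters and is not a site of binding.

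Nuclei were assigned to a class by marker genes that include none of the 10 genes: a nucleus needed UMIs of at least 2 markers of a class and at least 2 times as many marker UMIs of that class as of any of the other 12 classes. Of 119035 barcodes, 106898 passed the filters and 97784 were assigned. There were 73105 adipocyte-gated, 4462 endothelial-gated, 6020 adipose stem and progenitor (ASPC)-gated and 3232 macrophage-gated nuclei. A gate is a range, not a cell type, and 6.83%, 12.1%, 22.5% and 27.8% of these lay near its limits, with UMIs of exactly 2 markers or under 3 times the marker UMIs of another class. Total UMIs per library ran from 5461133 in 2-month lPRAT to 87035783 in cold iBAT, and the median per kept nucleus from 880 to 6300. In cold mPRAT 66.0% of barcodes were above the mitochondrial limit of 10% and were left out, against at most 22.1% elsewhere. Libraries shared 1 to 75 barcodes per pair, at most 0.671% of the smaller library. Endothelial-gated nuclei of 2-month lPRAT (20) and macrophage-gated nuclei of 2-month iBAT (23) were under the limit of 50 and enter no comparison.

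Levels are CPM, the counts of a gene over all UMIs of the class in a library, scaled to 1000000 UMIs, and a gene counts as past the fold when its log2 ratio, with 1 CPM added to both sides, is at least 1 in size and both libraries together hold at least 20 counts. RNA from adipocytes reaches other nuclei, so each level outside adipocytes is set beside a carry-over level. This is the adipocyte CPM of the gene times the fraction at which the adipocyte genes Lipe, Plin4 and Acvr1c, kept out of the gate, appeared in the class. That fraction was 10.4% to 28.4% in endothelial-gated, 5.36% to 14.2% in ASPC-gated and 4.83% to 23.0% in macrophage-gated nuclei.

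In adipocyte-gated nuclei the cold libraries had more Lpl, Angptl8 and Mfsd2a and less Angptl4 than the room-temperature libraries of the same depot, while Cd36, Fabp4, Vldlr and Lmf1 stayed within 2-fold. Past the fold were 2 genes higher and 1 lower of 10 tested in mPRAT, where 16.3% of all 15834 genes tested were past the fold in either direction, 7.63% higher and 8.72% lower. In iBAT 3 of 10 were higher and 0 lower, against 13.4% of 17184 genes (5.16% higher and 8.21% lower), and in iWAT 2 of 9 were higher and 1 lower, against 8.84% of 15965 genes (2.22% higher and 6.63% lower). The median log2 ratio of the tested genes was 0.24 in mPRAT, -0.04 in iBAT and 0.45 in iWAT, beside -0.06, -0.09 and -0.20 over all genes.

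Over the 3 depots together, with depot as a block in edgeR's quasi-likelihood fit across all genes (3 pairs, 2 residual degrees of freedom), 0 of 10 genes passed a Benjamini-Hochberg adjusted p of 0.05 in adipocyte-gated nuclei, as did 0% of all 19601 genes. At an unadjusted p under 0.05 there were 4 of the 10, beside 18.2% of all genes: Angptl8 (log2 2.10, edgeR adjusted p = 0.0515), Mfsd2a (4.61, adjusted p = 0.0628), Angptl4 (-0.83, adjusted p = 0.0846) and Lpl (1.53, adjusted p = 0.126). All 4 had the same direction in 3 of 3 depots. The same edgeR fit called 0 of 9 genes in endothelial-gated, 0 of 8 in ASPC-gated and 0 of 7 in macrophage-gated nuclei, beside 0.886%, 0.515% and 0.283% of all genes, and 2, 2 and 0 at an unadjusted p under 0.05, beside 9.32%, 10.3% and 6.02% of all genes. Without the iWAT pair, which leaves 1 residual degree of freedom, 3 genes passed in adipocyte-gated nuclei: Angptl8 (edgeR adjusted p = 0.0261), Mfsd2a (0.0261) and Angptl4 (0.0443). In that fit 5.16% of all 18573 genes passed.

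Lpl, on chromosome 8 (GRCm38, 68880491 to 68907448, plus strand), is the lipase itself. In mPRAT adipocyte-gated nuclei it measured 951 CPM at 1 month, 1467 at 2 months, 1262 at 6 months and 1956 at 6 months in the cold. The iBAT values in the same order were 595, 985, 610.5 and 1769 CPM. lPRAT had 1822 CPM at 2 months and 887 at 6 months, and iWAT had 564 CPM at room temperature and 2071 in the cold. The 3 cold libraries and 2-month lPRAT were thus the 4 highest of the 12, and iWAT at room temperature the lowest. The cold fold of Lpl was 1.55 (1.52 to 1.58) in mPRAT, 2.90 (2.86 to 2.93) in iBAT and 3.67 (3.61 to 3.74) in iWAT, so the call was made in iBAT and iWAT and not in mPRAT. With each nucleus thinned to 1000 UMIs, the share of adipocyte-gated nuclei with an Lpl UMI went from 41.1% to 76.8% in iBAT, from 36.7% to 80.1% in iWAT and from 60.1% to 76.2% in mPRAT. The unthinned shares were 64.6% and 99.0% in iBAT. In lymphoid-gated nuclei, which should lack Lpl, the thinned shares were 10.3% and 25.8% in iBAT at a median of 813 and 1656 UMIs. Adipocyte-gated medians there were 2294 and 6749 UMIs.

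Angptl4, the secreted inhibitor of the lipase on chromosome 17, was lower in each cold library than in its partner. It measured 140 CPM in mPRAT at 6 months and 66.9 in the cold, 131 and 67.8 in iBAT, and 171 and 84.1 in iWAT. The cold fold was 0.48 (0.44 to 0.52) in mPRAT, 0.52 (0.50 to 0.54) in iBAT and 0.49 (0.47 to 0.52) in iWAT. These 3 values sit at the 2-fold line, and only mPRAT and iWAT passed it. The iWAT call ended with TMM scaling (log2 -0.85), and with the mean CPM of nuclei (-0.98), and both ended with 10 CPM added and with centring on the median of all genes. The younger libraries had 109 and 92.1 CPM in mPRAT and 155 and 112.5 in iBAT at 1 and 2 months. lPRAT had 27.1 CPM at 2 months, the lowest of all 12 libraries, and 159 at 6 months.

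The number of Lpl counts per Angptl4 count sets the enzyme beside its inhibitor within 1 class, and it is compared only between libraries. It was 9.00 in mPRAT at 6 months and 29.2 in the cold, 4.67 and 26.1 in iBAT, and 3.30 and 24.6 in iWAT. The 3 depots thus differed at room temperature and lay between 24.6 and 29.2 in the cold. At 1 and 2 months it was 8.70 and 15.9 in mPRAT and 3.83 and 8.76 in iBAT. The highest ratio was that of 2-month lPRAT, 67.3 (53.1 to 86.7), from 69 Angptl4 counts in the library with the fewest UMIs, and 6-month lPRAT had 5.57.

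**Figure D1:**
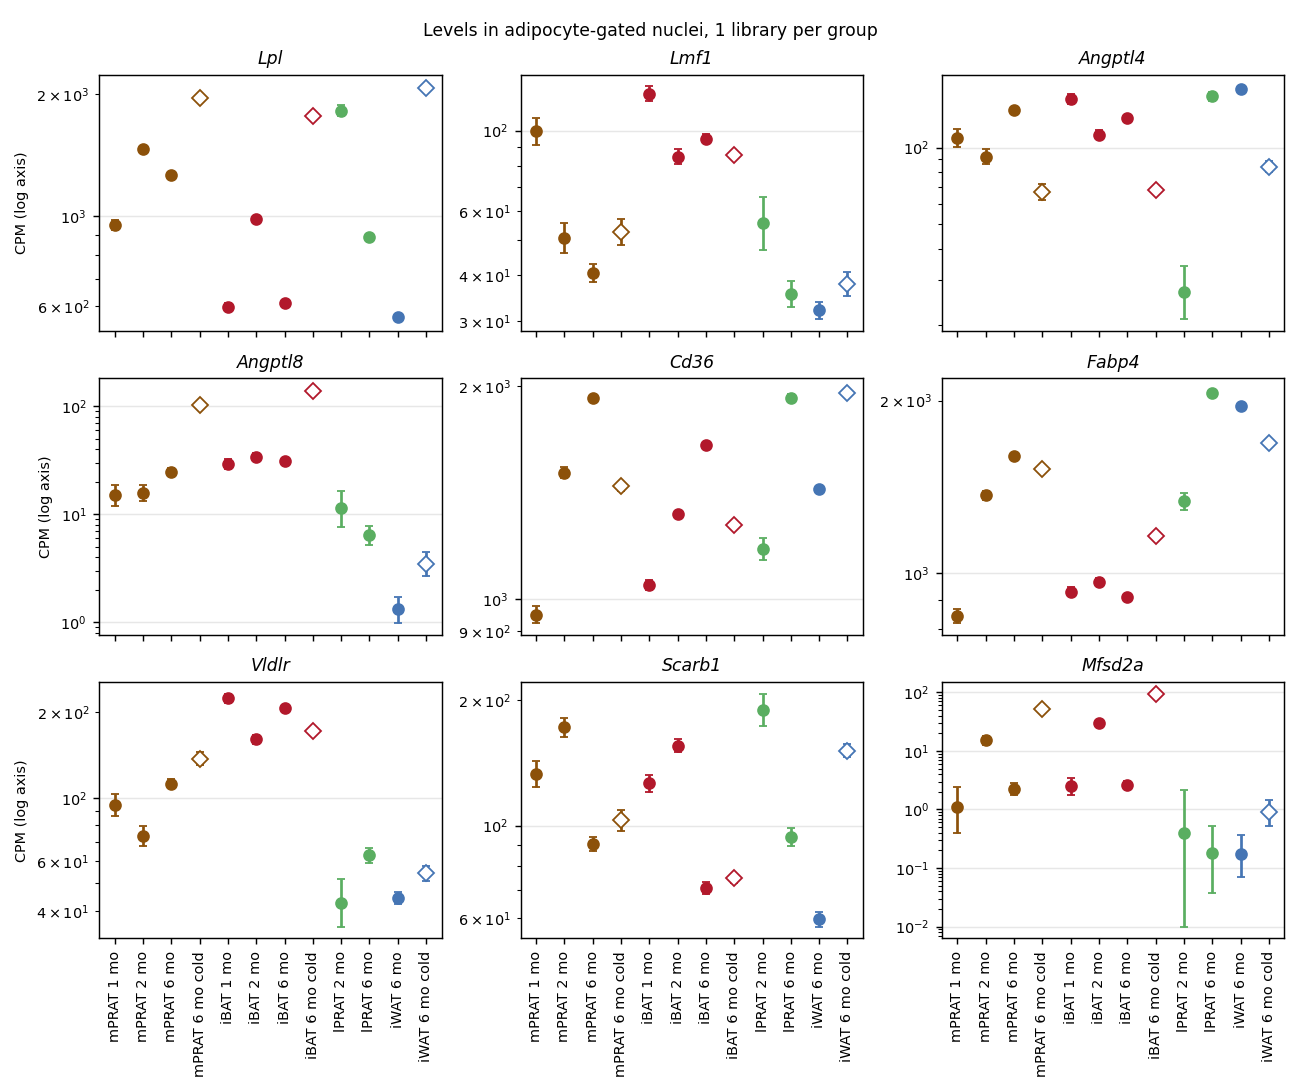
Levels of 9 genes in adipocyte-gated nuclei (CPM, log axis, each panel with its own range) in the 12 libraries; open diamonds are cold libraries, colours are depots and bars are 95% counting intervals. Lpl, Angptl8 and Mfsd2a were higher and Angptl4 lower in the cold library of each depot than in its room-temperature partner of the same age.

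Angptl8, a gene that feeding and insulin raise in fat and liver, lies on chromosome 9 (21835510 to 21837347, plus strand). Its adipocyte-gated level was 15.0, 15.8, 24.6 and 103 CPM in mPRAT at 1, 2 and 6 months and in the cold, and 29.2, 33.8, 31.0 and 139 CPM in iBAT. lPRAT had 11.4 and 6.39 CPM at 2 and 6 months, and iWAT 1.32 CPM at room temperature and 3.49 in the cold. Every iBAT and mPRAT library was above every lPRAT library, and lPRAT was above iWAT, while mPRAT and iBAT overlapped. The cold fold was 4.18 (3.81 to 4.59) in mPRAT and 4.47 (4.24 to 4.71) in iBAT, and 2.65 (1.80 to 3.91) in iWAT, where 52 and 62 counts left it under the fold with 1 CPM added. The whole of Angptl8, 1838 bases, lies within Dock6 on the opposite strand, and whether counting used strand is not stated. Dock6 measured 16.6 and 37.3 CPM in mPRAT, 20.8 and 54.1 in iBAT and 8.78 and 8.32 in iWAT without and with cold, and its part in the Angptl8 values was not tested.

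Mfsd2a, the lysophosphatidylcholine transporter on chromosome 4 (122946850 to 122961188, minus strand), had the widest range of the 10 genes in adipocyte-gated nuclei. In mPRAT it measured 1.09 CPM at 1 month, 15.2 at 2 months, 2.26 at 6 months and 51.4 in the cold. In iBAT the values were 2.51, 29.6, 2.64 and 92.1 CPM. lPRAT (0.392 and 0.179 CPM) and iWAT (0.177 and 0.900 CPM) were at 16 counts or fewer per library. In both mPRAT and iBAT the 2-month library lay between the cold library and the other 2 room-temperature libraries. The cold fold was 22.7 (17.6 to 29.7) in mPRAT and 34.9 (29.5 to 41.7) in iBAT. In iWAT, on 7 and 16 counts, it was 5.08 (1.98 to 14.6) and under the fold with 1 CPM added. At 1000 UMIs per nucleus 8.76% of cold iBAT and 6.03% of cold mPRAT adipocyte-gated nuclei had an Mfsd2a UMI, against 0.257% and 0.229% at room temperature. In lymphoid-gated nuclei it was 1 of 62 in cold iBAT and 0 of 47 in cold mPRAT.

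Scarb1, the receptor for high density lipoprotein on chromosome 5, differed past the fold with cold in iWAT and not in mPRAT or iBAT: 59.4 CPM at room temperature and 151 in the cold, a fold of 2.55 (2.41 to 2.70). In mPRAT it was 90.5 and 103 CPM and in iBAT 70.9 and 74.8 CPM, folds of 1.14 and 1.05. Whether the depots differ in this was not tested. Cd36, the fatty acid receptor on chromosome 5, ran from 949 to 1955 CPM over the 12 libraries and was lower in cold mPRAT (fold 0.75) and cold iBAT (0.77) but higher in cold iWAT (1.36). Fabp4, the cytosolic fatty acid carrier on chromosome 3, had cold folds of 0.95, 1.28 and 0.86. Vldlr, on chromosome 19, had 1.23, 0.83 and 1.22, and Lmf1, on chromosome 17, had 1.29, 0.90 and 1.18, each in the order mPRAT, iBAT and iWAT. For Lmf1 in iBAT the direction turned, to a log2 ratio of 0.02, when libraries were scaled by the TMM method. Gpihbp1 was between 0.112 and 2.88 CPM in adipocyte-gated nuclei.

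**Figure D2:**
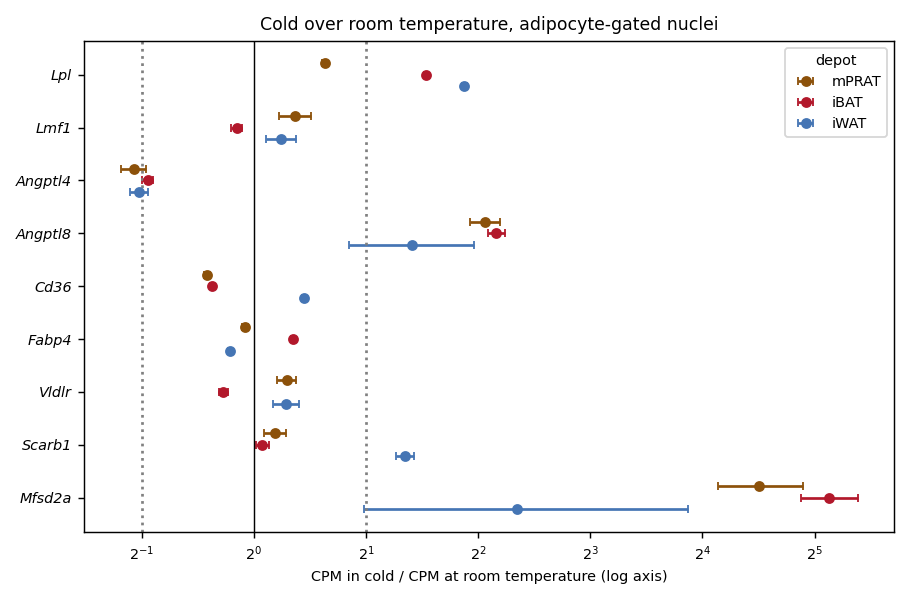
Cold CPM over room-temperature CPM (log axis) of 9 genes in adipocyte-gated nuclei of mPRAT, iBAT and iWAT; bars are 95% counting intervals and dotted lines mark 2-fold. Mfsd2a and Angptl8 lie beyond 4-fold in mPRAT and iBAT, and the 3 Angptl4 points sit together at 0.48 to 0.52.

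Other genes of the same processes were taken from a list of 28: 14 that mature, anchor or control the lipases or are apolipoproteins, 6 receptors and efflux transporters and 8 of fatty acid uptake. In the cold, 7 of 24 tested were higher and 3 lower past the fold in mPRAT (beside 16.3% of all genes in either direction), 3 higher and 3 lower of 25 in iBAT (13.4%), and 4 higher and 3 lower of 23 in iWAT (8.84%). Among the most different were, in mPRAT, Sdc1 (2.26 to 33.9 CPM), Lipg (0.480 to 8.02 CPM), Abcg1 (36.9 to 7.24 CPM) and Fabp3 (21.4 to 89.2 CPM). Sdc1 encodes a heparan sulfate proteoglycan, Lipg endothelial lipase, Abcg1 a cholesterol exporter and Fabp3 a fatty acid binding protein of heart and brown fat. Sdc1 was also higher in cold mPRAT in endothelial-gated (9.67 to 88.9 CPM), ASPC-gated (5.09 to 81.1) and macrophage-gated nuclei (4.45 to 72.2), in the library with 66.0% of barcodes over the mitochondrial limit. The share of epithelial-gated nuclei was 0.386% in 6-month mPRAT and 1.69% in cold mPRAT. Mesothelial-gated nuclei were 0.333% and 1.61% in these libraries, and adrenal-gated nuclei 0.675% and 2.88%. The part of these in the Sdc1 values was not tested. In iBAT Lipg (1.35 to 10.5 CPM) was higher, and Cavin1 (48.5 to 17.6 CPM), which shapes caveolae, and Apoe (35.2 to 14.4 CPM), an apolipoprotein, were lower. In iWAT Fabp3 (0.152 to 6.30 CPM) and Fabp5 (3.85 to 12.6 CPM), another fatty acid binding protein, were higher, and Hspg2 (217 to 94.4 CPM), which encodes perlecan, was lower.

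With age, the 2-month libraries of mPRAT and iBAT had more Mfsd2a, Lpl and Scarb1 than both the younger and the older library of their depot. Mfsd2a was 13.9-fold (6.23 to 38.6) higher at 2 than at 1 month in mPRAT and 11.8-fold (8.34 to 17.2) higher in iBAT. At 6 over 2 months it was 0.15 (0.11 to 0.20) and 0.089 (0.073 to 0.108). Lpl was 1.54 and 1.66 at 2 over 1 month and 0.86 and 0.62 at 6 over 2 months, all under the fold. Scarb1 measured 133, 172 and 90.5 CPM in mPRAT and 126, 156 and 70.9 CPM in iBAT at 1, 2 and 6 months. Its fold at 6 over 2 months was 0.52 in mPRAT, under the fold, and 0.45 in iBAT, past it. At 2 over 1 month 1 of 9 genes was higher and 0 lower in mPRAT (6.19% of all genes past the fold), and 1 higher and 1 lower of 10 in iBAT (3.11%), where Gpihbp1, at under 3 CPM, was the lower one. At 6 over 2 months 0 were higher and 1 lower in mPRAT (10.9%) and 0 higher and 2 lower in iBAT (7.19%). The 2-month library is a member of both comparisons.

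With mPRAT, iBAT and lPRAT together at 6 over 2 months (3 pairs, depot as a block, edgeR's quasi-likelihood test), 0 of 10 genes passed an adjusted p of 0.05 in adipocyte-gated nuclei, as did 0% of all 18697 genes. At an unadjusted p under 0.05 there were 4 of the 10, beside 12% of all genes. These were Mfsd2a (log2 -3.02, edgeR adjusted p = 0.218), Scarb1 (-1.05, adjusted p = 0.225), Lpl (-0.67, adjusted p = 0.348) and Vldlr (0.48, adjusted p = 0.376). Scarb1, Lpl and Vldlr each had the same direction in 3 of 3 depots. For Mfsd2a the lPRAT pair was below the minimum count for a fold, so its direction there is not usable. Its direction was the same in mPRAT and iBAT. In ASPC-gated nuclei 0 of 7 passed in the same edgeR fit (0.0242% of all genes), and 2 of 7 at an unadjusted p under 0.05 (7.63%). Without the lPRAT pair, Fabp4 (log2 0.97, edgeR adjusted p = 0.000775) and Cd36 (-0.79, adjusted p = 0.024) passed there, beside 4.18% of all genes, at levels of 0.932 to 1.98 times carry-over for Fabp4 and 0.415 to 1.27 times for Cd36 in these 4 libraries. In macrophage-gated nuclei, over mPRAT and lPRAT only, 0 of 7 passed (0.289%) and 1 did at an unadjusted p under 0.05 (6.75%), Cd36 (log2 1.53, edgeR adjusted p = 0.138).

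Between 1 and 6 months Cd36 and Lmf1 differed past the fold in mPRAT and none of the 10 did in iBAT. Cd36 measured 949 CPM at 1 month and 1927 at 6 months in mPRAT, a fold of 2.03 (1.97 to 2.09), and 1045 and 1651 CPM in iBAT, a fold of 1.58 (1.55 to 1.61). Lmf1 was 99.6 and 40.7 CPM in mPRAT, a fold of 0.41 (0.37 to 0.45), and 126 and 95.1 CPM in iBAT, a fold of 0.75. The shares of all genes past the fold were 14.7% in mPRAT and 9.04% in iBAT, so that 2 of 10 and 0 of 10 stand beside them. Cd36 in mPRAT lies at the limit and dropped under it, to log2 ratios of 0.95 and 0.99, with the mean CPM of nuclei and without the 5% of nuclei richest in UMIs. Of the list of 28, 2 of 23 tested were higher and 0 lower in mPRAT, namely Abcg1 (10.2 to 36.9 CPM) and Cav1 (444 to 993 CPM), the caveolin of adipocyte caveolae. In iBAT 2 of 25 were higher and 1 lower: Lipa (fold 2.95), the lysosomal lipase, Sort1 (113 to 242 CPM), a sorting receptor, and Hspg2 (174 to 43.4 CPM).

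In lPRAT the 6-month library had more Angptl4 and less Lpl and Scarb1 than the 2-month library. Angptl4 was 27.1 and 159 CPM, a fold of 5.89 (4.64 to 7.59). Lpl was 1822 and 887 CPM, a fold of 0.49 (0.47 to 0.50), and Scarb1 190 and 93.9 CPM, a fold of 0.49 (0.45 to 0.55). That is 1 gene higher and 2 lower of 8 tested, where 20.7% of all genes were past the fold. The 2-month library is the shallowest, with a median of 936 UMIs in adipocyte-gated nuclei against 6386, and 2.00% against 0.244% mitochondrial UMIs, and the part of these in the differences was not tested. With TMM scaling 1 of the 3 calls was left, so Lpl and Scarb1 are at the limit. Of the list of 28, 3 of 20 tested were higher and 1 lower, and among the higher were Abcg1 (19.6 to 99.0 CPM) and Lipa (12.2 to 27.0 CPM). Lipa was also higher at 6 months, and by more, in macrophage-gated nuclei of lPRAT. These were 5.64% of kept nuclei at 2 months and 16.0% at 6 months, and their part in the adipocyte-gated Lipa values was not tested.

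Between depots at 6 months and room temperature, adipocyte-gated nuclei of iBAT had more Angptl8, Mfsd2a, Vldlr, Lmf1 and Gpihbp1 and less Fabp4 than those of iWAT, 5 higher and 1 lower of 10 where 23.4% of all genes were past the fold. Gpihbp1 was at most 2.88 CPM in any adipocyte-gated library. Endothelial-gated nuclei of the same iBAT and iWAT libraries had 515 and 40.3 CPM, and their part in the adipocyte-gated Gpihbp1 values was not tested. Angptl8 was 23.6-fold (17.9 to 31.7) and Mfsd2a 14.9-fold (7.03 to 37.7) higher. Vldlr, the receptor that binds triglyceride-rich lipoproteins, measured 207 CPM in iBAT and 44.5 in iWAT, a fold of 4.66 (4.43 to 4.90). Lmf1 measured 95.1 and 32.1 CPM, a fold of 2.97 (2.79 to 3.16). Fabp4 measured 911 and 1959 CPM, a fold of 0.47 (0.46 to 0.47). Lpl was 1.08 and Cd36 1.15.

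In mPRAT the Lpl level was above those of iBAT, iWAT and lPRAT at this age. mPRAT over iWAT had 4 of 10 genes higher and 0 lower (11.8% of all genes), with Lpl at 2.24 (2.20 to 2.28), Angptl8 at 18.7, Mfsd2a at 12.8 and Vldlr at 2.52. mPRAT over iBAT had Lpl higher at 2.07 (2.04 to 2.10) and Lmf1 lower at 0.43 (0.40 to 0.46), 2 of 10 against 13.5%. The Lpl call was lost with TMM scaling, which shifted this comparison by -0.12 in log2. mPRAT over lPRAT had Angptl8 (3.86) and Mfsd2a (12.6, on 66 and 3 counts) higher, 2 of 10 against 14.5%. lPRAT over iWAT had only Angptl8 (4.86) past the fold, 1 of 9 against 10.2%. These comparisons share libraries and are not independent of each other.

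In the cold, mPRAT and iBAT adipocyte-gated nuclei had 0 of 10 genes past the fold between them, against 12.6% of all genes. Lpl was 1.11 and Cd36 1.13 there, and both turned to log2 ratios of -0.11 and -0.07 with TMM scaling. iBAT over iWAT in the cold had Mfsd2a at 102 (63.0 to 179), Angptl8 at 39.8 (31.0 to 51.9), Vldlr at 3.17 and Lmf1 at 2.25 higher and Scarb1 at 0.49 (0.47 to 0.52) lower, 5 of 10 against 29.6%. The Scarb1 call ended with TMM scaling (log2 -0.97), with 10 CPM added and with the mean CPM of nuclei.

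Among adipocyte-gated nuclei the 10 genes were also read by whether a nucleus held a UMI of Ucp1, the uncoupling protein of thermogenic adipocytes, in the 9 libraries that had enough of both kinds. Mfsd2a was higher in nuclei with a Ucp1 UMI in 9 of 9 libraries, with the interval above 1 in 7, and the 2 exceptions were the 1-month libraries (1.32 and 1.13). In cold mPRAT it was 80.5 CPM with and 6.42 without a Ucp1 UMI, a fold of 12.5 (8.63 to 18.9). In cold iBAT, where 10693 of 10951 nuclei had a Ucp1 UMI, it was 93.0 and 35.2 CPM. In cold iWAT it was 15.5 CPM (12 counts) in 154 nuclei with a Ucp1 UMI and 0.235 CPM (4 counts) in 2733 without, a fold of 65.8 (19.9 to 280). Vldlr was also higher in 9 of 9 libraries, with folds from 1.04 to 5.46, and was 248 CPM with and 45.3 CPM without in cold iWAT. Lmf1 was higher in 7 of 9 libraries, with folds from 0.93 in 6-month iBAT, where the interval was below 1, to 3.07 in cold iWAT. Cd36 was higher in 8 of 9, with folds from 0.97 to 1.38, and Fabp4 was lower in 7 of 9, with folds from 0.71 to 1.23 and the interval below 1 in 6. Angptl4 was higher in 7 of 9 (0.90 to 1.80) and Scarb1 in 4 of 9 (0.54 to 1.45), and Gpihbp1 had an interval off 1 in 0 of 9. Lpl was mixed over this split, with folds from 0.85 to 1.11, higher in 4 of 9 libraries. Its interval was above 1 in 4 libraries and below 1 in 4. Angptl8 did not follow the split in the room-temperature libraries (0.70 to 1.13). In the cold Angptl8 was 1.55 (1.37 to 1.77) in mPRAT, 1.34 (1.13 to 1.60) in iBAT and 2.35 (0.83 to 5.44) in iWAT, on 6 and 56 counts. Nuclei of 1 library share their tissue, free RNA and depth, and a nucleus with more UMIs is more likely to show Ucp1.

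In endothelial-gated nuclei Gpihbp1, Cd36, Scarb1 and Fabp4 lay well above the carry-over level in all 11 libraries with at least 50 nuclei, and Vldlr and Angptl8 did not in any. Cd36 was 8.21 to 22.7 times, Scarb1 9.29 to 49.4 times and Fabp4 5.37 to 27.2 times the carry-over level. Lpl was 1.19 to 5.06 times, and Angptl4 1.31 to 6.88 times. Vldlr was 0 to 2.46 times, with its interval above carry-over in 0 of 11 libraries.

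Gpihbp1, on chromosome 15 (75596628 to 75599481, plus strand), encodes the protein that holds the lipase in capillaries. Its endothelial-gated level was 124, 74.8, 213 and 235 CPM in mPRAT at 1, 2 and 6 months and in the cold. In iBAT it was 181, 129, 515 and 349 CPM, in 6-month lPRAT 162 CPM, and in iWAT 40.3 and 41.9 CPM. These were 323 to 5855 times the carry-over level, a ratio made large by an adipocyte-gated Gpihbp1 level of at most 2.88 CPM. No ASPC-gated or macrophage-gated library was above 11.0 CPM. Both iWAT libraries were below all 9 others. iBAT over iWAT was 12.8 (7.61 to 23.1) at room temperature and 8.34 (5.26 to 14.0) in the cold, on 15 and 19 counts in iWAT. In these comparisons 5 of 8 genes were past the fold at room temperature, against 23.8% of all genes, and 4 of 8 in the cold, against 23.6%. These counts include Vldlr at room temperature and Angptl8 in the cold, which were not above carry-over. Ribosomal protein gene UMIs of these iBAT and iWAT nuclei were 0.789% and 0.232% at room temperature, and 0.530% and 0.207% in the cold. Mitochondrial UMIs were 3.91% and 0.685% at room temperature, and 2.50% and 1.48% in the cold. The ribosomal protein share, like Gpihbp1, was lower in both iWAT libraries than in all 9 others. The part of these shares in the depot difference was not tested. At 1000 UMIs per nucleus 38.4% (31.5 to 45.7) of 6-month iBAT and 3.47% (1.28 to 7.40) of iWAT endothelial-gated nuclei had a Gpihbp1 UMI, with 0 of 29 and 0 of 532 lymphoid-gated nuclei. Thinning left out 252 of 442 and 68 of 241 endothelial-gated nuclei as too shallow.

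Gpihbp1 and Fabp4 were both higher in 6-month than in younger iBAT endothelial-gated nuclei, and the other 6 genes tested there did not pass the fold. At 6 over 1 month Gpihbp1 was 2.84 (2.37 to 3.42) and Fabp4 3.92 (3.69 to 4.16), 2 of 8 tested against 17.8% of all genes. At 6 over 2 months the folds were 3.98 (3.14 to 5.08) and 4.21 (3.92 to 4.53), 2 of 8 against 17%. Fabp4 measured 1494, 1390 and 5853 CPM at 1, 2 and 6 months and 3831 CPM in the cold. In mPRAT the folds at 6 over 2 months were 2.85 (1.70 to 5.10) and 2.17 (1.87 to 2.52), 2 of 7 against 16.9%. The Fabp4 call there ended under 4 alternatives, down to a log2 ratio of 0.82 without the 5% of nuclei richest in UMIs. The folds were 1.72 and 1.67 at 6 over 1 month, where 0 of 7 were past the fold against 13.8%. Over mPRAT and iBAT together at 6 over 2 months, with depot as a block in edgeR's quasi-likelihood test, both genes passed: Gpihbp1 (log2 1.80, adjusted p = 0.000733) and Fabp4 (1.56, adjusted p = 0.0147), each higher in 2 of 2 depots. That is 2 of 8 tested beside 2.8% of all 9218 genes, and 2 of 8 beside 14.9% at an unadjusted p under 0.05, from 2 pairs that leave 1 residual degree of freedom, so no pair could be left out. The fit measures how far these 2 depots agree and not the spread between mice, and whether the depots share animals is not stated. Mitochondrial UMIs of these iBAT nuclei were 0.762%, 0.752% and 3.91% at 1, 2 and 6 months and 2.50% in the cold, and ribosomal protein gene UMIs 0.291%, 0.333%, 0.789% and 0.530%. In mPRAT the mitochondrial shares were 1.95% and 0.914% at 2 and 6 months and 2.97% in the cold, and the ribosomal protein shares 0.319%, 0.431% and 0.633%. In iBAT both shares, like Gpihbp1 and Fabp4, were highest at 6 months and next highest in the cold. From 1 to 2 months the ribosomal protein share went up there while both genes went down. In mPRAT the ribosomal protein share was higher with the 2 genes at 6 than at 2 months. The part of these shares was not tested. From the list of 28, Apoe (38.1 to 207 CPM), Fabp3 (13.6 to 43.2 CPM), Fabp5 (29.9 to 88.3 CPM) and Tcf15 (89.8 to 229 CPM), a transcription factor of heart and fat capillaries, were the most different at 6 over 2 months in iBAT, among 6 higher and 1 lower of 19.

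**Figure D3:**
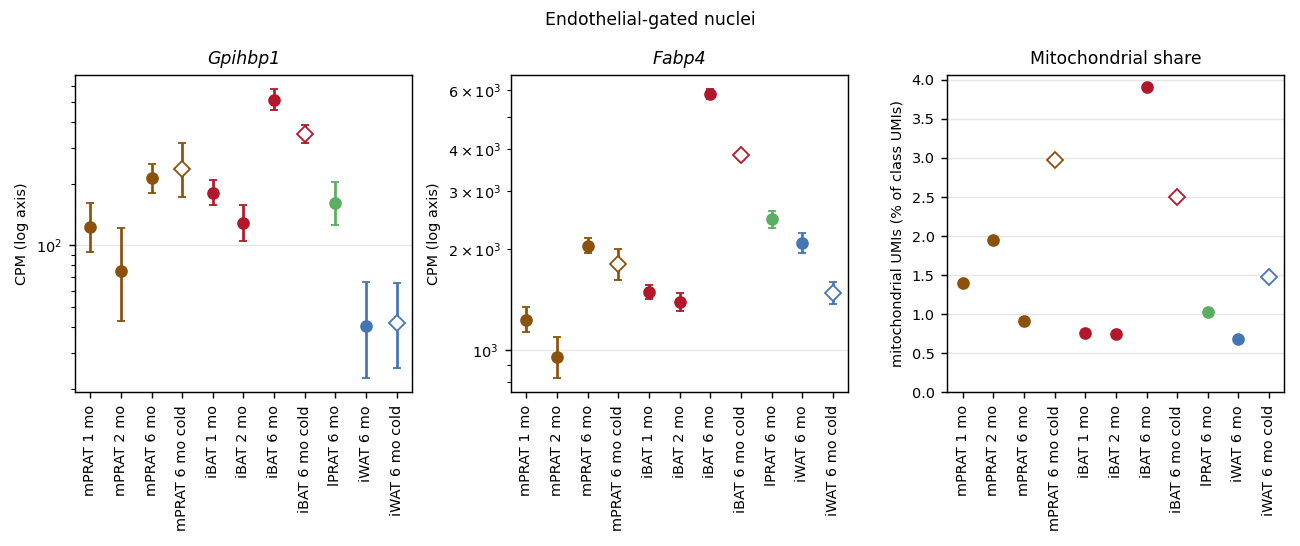
Gpihbp1 and Fabp4 (CPM, log axis, bars 95% counting intervals) and the mitochondrial share of UMIs in endothelial-gated nuclei of the 11 libraries with at least 50; open diamonds are cold libraries and colours are depots. Gpihbp1 is lowest in the 2 iWAT libraries, and both genes and the mitochondrial share are highest in 6-month iBAT.

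Cd36 in endothelial-gated nuclei was highest in 6-month lPRAT, at 6107 CPM, then 4053 and 4029 CPM in iWAT without and with cold. The 8 mPRAT and iBAT libraries ran from 2124 to 3526 CPM and did not reach these. mPRAT over lPRAT was 0.44 (0.42 to 0.47), past the fold with Angptl4 (0.25), 2 of 7 against 13.4%. The Cd36 call ended with the stricter gate and with the mean CPM of nuclei (log2 -0.98). Scarb1 was also highest in 6-month lPRAT, at 647 CPM, and lowest in cold iBAT, at 197 CPM. In iBAT it measured 398, 317, 274 and 197 CPM at 1, 2 and 6 months and in the cold. None of its comparisons was past the fold.

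Cold differences of endothelial-gated nuclei were under the fold for Gpihbp1, Cd36, Fabp4, Lpl and Angptl4. Lpl had log2 ratios of 0.46, 0.50 and 0.52 in mPRAT, iBAT and iWAT, and the direction turned in iBAT and iWAT with carry-over subtracted. Angptl4 had -0.29, 0.71 and -0.86 in the same order, and 0.10, 1.59 and -0.64 with carry-over subtracted. It was past the fold under 2 of 11 alternatives in iBAT and 3 of 11 in iWAT. Gpihbp1 was 1.11 in mPRAT, 0.68 (0.58 to 0.80) in iBAT and 1.04 in iWAT, Cd36 0.81, 1.10 and 0.99, and Fabp4 0.88, 0.65 and 0.71. Past the fold were 0 of 6 genes in mPRAT (15.6% of all genes), 0 of 6 in iWAT (9.6%) and 2 of 9 in iBAT (12.7%). The 2 in iBAT were Angptl8 at 3.98 (1.21 to 20.6) and Vldlr at 0.39 (0.19 to 0.82), which did not exceed the carry-over level in either library. The 95% interval of Gpihbp1 in iWAT was 0.50 to 2.20, on 15 and 19 counts.

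**Figure D4:**
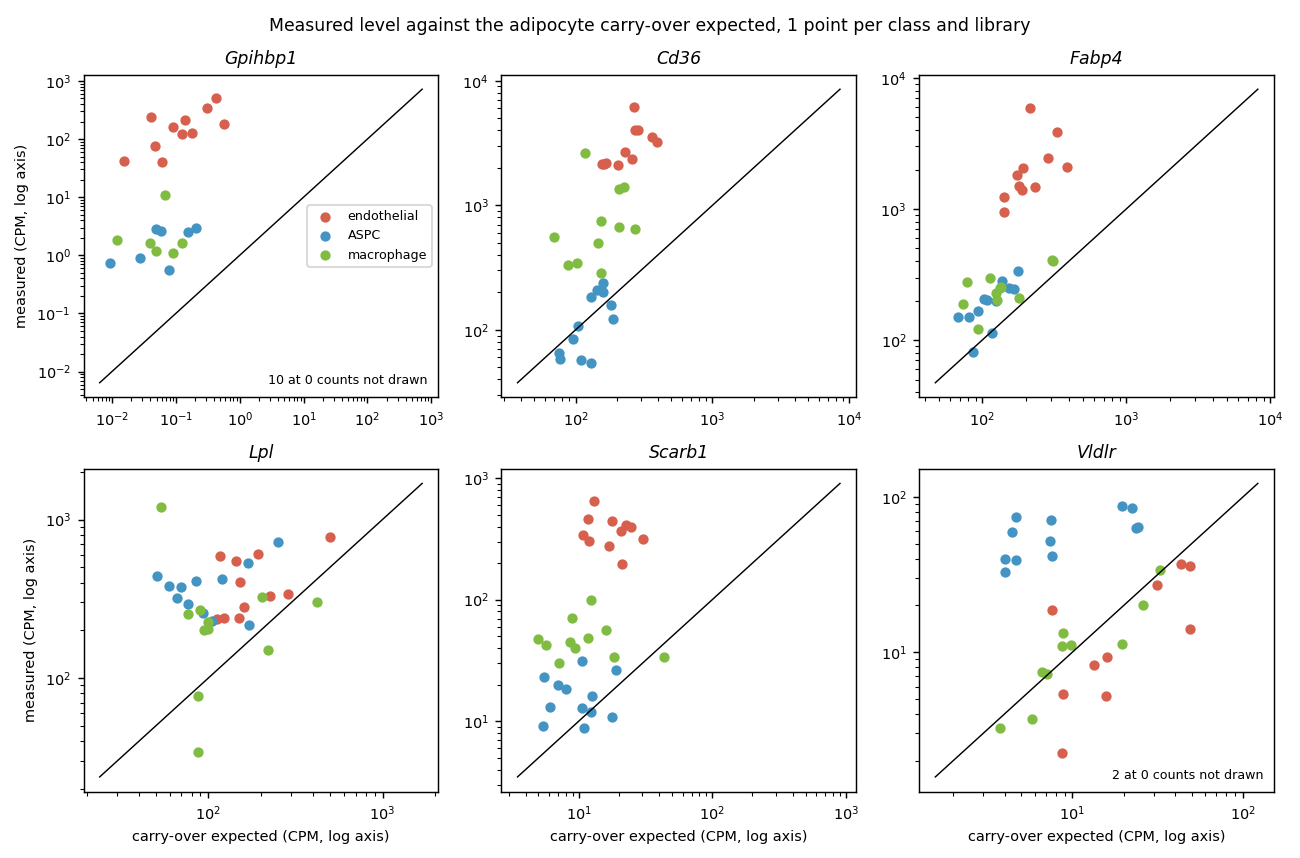
Measured CPM against the adipocyte carry-over expected (both log axes) for 6 genes, 1 point per class and library with at least 50 nuclei; the line marks equality. Endothelial-gated nuclei lie above the line for Gpihbp1, Cd36, Fabp4 and Scarb1 in all 11 libraries, ASPC-gated nuclei lie above it for Lpl and Vldlr in all 12, and the macrophage-gated nuclei of 6-month lPRAT stand apart for Lpl and Cd36.

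ASPC-gated nuclei held Lpl, Vldlr and Lmf1 above carry-over in 12 of 12 libraries, whereas Cd36 (0.415 to 1.49 times carry-over) was in 4 and Scarb1 (0.608 to 4.19 times) in 6. Fabp4 was above it in 10 of 12, by at most 2.23 times, but it was so also in lymphoid-gated nuclei, in 7 of 7 libraries and by up to 4.06 times. Lmf1 was also above carry-over in lymphoid-gated nuclei in 5 of 7 libraries, by up to 16.3 times, beside 1.99 to 10.3 times in ASPC-gated nuclei. Lpl ran from 216 CPM in 2-month lPRAT to 718 CPM in cold iBAT, 1.27 to 8.66 times carry-over. The cold fold of Lpl was 1.93 (1.71 to 2.17) in iBAT, 1.21 (1.10 to 1.32) in iWAT and 0.56 (0.46 to 0.66) in mPRAT, none past the fold. With carry-over subtracted the iWAT direction turned, to a log2 ratio of -0.10, and iBAT went to 0.62, while mPRAT went from -0.85 to -1.398. The mPRAT value was past the fold under 4 of 11 alternatives. Mitochondrial UMIs of ASPC-gated mPRAT nuclei were 0.733% at 6 months and 3.33% in the cold. Nuclei were not matched between libraries by the subsets of the gate described below, in which Lpl differed. The part of either in the cold folds was not tested. The carry-over level of Lpl itself was higher in cold in each depot, as was adipocyte-gated Lpl. In iBAT the carry-over fraction also went from 11.4% to 14.2%, while it was lower in cold in mPRAT and iWAT. The ASPC-gated Lpl level was 5.37 times carry-over in 6-month iBAT and 2.86 times in cold iBAT. In the cold, 0 of 7 genes passed the fold in mPRAT (11.3% of all genes) and in iWAT (8.18%), and 1 of 8 in iBAT (12.4%), which was Angptl8 on 20 and 4 counts, at 0.65 times carry-over in the cold library. That direction turned when carry-over was subtracted. Vldlr ran from 33.0 to 87.4 CPM, 2.62 to 15.8 times carry-over, and was 2.25-fold (1.73 to 2.93) higher in lPRAT and 2.14-fold (1.64 to 2.80) higher in mPRAT than in iWAT at 6 months, each time 1 of 2 genes past the fold of 7 tested, against 18.5% and 15.6% of all genes. Both Vldlr calls ended with 10 CPM added, with centring and with TMM scaling (log2 0.91 to 0.97). Angptl4 ran from 18.3 CPM in 1-month iBAT to its highest level in 6-month lPRAT and was lower in iBAT than in iWAT, at 0.32 (0.20 to 0.48), 1 of 7 genes past the fold against 16%.

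Within the ASPC gate, Lpl differed between nuclei with a UMI of Bmper or Col15a1, genes used to mark committed preadipocytes, and nuclei with a UMI of Dpp4 or Pi16, genes of interstitial progenitors. It was higher in the first in 8 of 8 libraries, by 2.47-fold to 8.44-fold with a median of 6.25, and every interval was above 1. The first set was deeper in 7 of 8 libraries, with a median of 3340 UMIs against 1655 in 6-month iWAT and 2907 against 1620 in cold iBAT, and 1292 against 1356 in 6-month iBAT, where the fold was 8.44. The part of depth was not tested. In 6-month iWAT it was 521 CPM in 650 nuclei and 66.2 CPM in 77 nuclei, and in cold iBAT 833 CPM in 369 and 337 CPM in 72 nuclei. The Dpp4 or Pi16 set had between 53.5 and 138 CPM in the 7 other libraries. The Lpl carry-over level of all ASPC-gated nuclei was 251 CPM in cold iBAT and 50.8 to 171 CPM in the 7 others, and the set was below it in 4 of 8 libraries: cold mPRAT, 6-month iBAT, 2-month lPRAT and cold iWAT. Vldlr went the other way in 7 of 8 libraries, with folds from 0.23 to 1.03 and the interval below 1 in 4. In 6-month lPRAT Vldlr was 44.3 CPM in the Bmper or Col15a1 set and 96.9 CPM in the Dpp4 or Pi16 set. Nuclei with UMIs of both sets were left out, and the sets are ranges cut from single UMIs, not cell types.

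**Figure D5:**
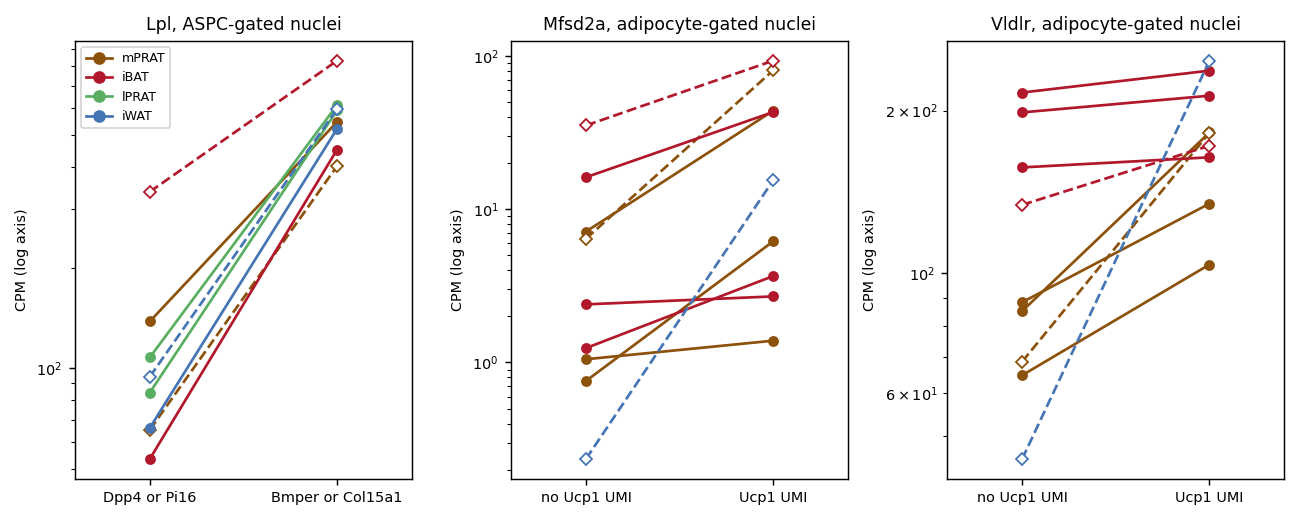
CPM (log axis) in 2 sets of nuclei of 1 class, each line 1 library, dashed with open diamonds for cold and coloured by depot: Lpl in ASPC-gated nuclei (8 libraries), and Mfsd2a and Vldlr in adipocyte-gated nuclei without and with a Ucp1 UMI (9 libraries). Every Lpl line goes up by 2.47-fold or more, every Mfsd2a line goes up with the steepest in cold iWAT, and the iBAT lines of Vldlr go up by 1.04-fold to 1.10-fold at room temperature and by 1.29-fold in the cold.

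In macrophage-gated nuclei 6-month lPRAT stood apart in Lpl and Cd36, which macrophages use to take up triglyceride fatty acids and oxidised lipoproteins. Lpl measured 1207 CPM there and 33.9 to 326 CPM in the 10 other libraries with at least 50 nuclei, and Cd36 2643 CPM against 288 to 1409 CPM. These were 22.6 and 22.8 times carry-over, and Lpl exceeded the adipocyte-gated level of the same library (887 CPM). Over 2-month lPRAT Lpl was 4.00 (3.06 to 5.34) and Cd36 4.12 (3.42 to 4.99), with Angptl4 the other gene higher (on 147 counts against 1), 3 of 6 tested against 34.7% of all genes. The 2-month nuclei had 3.46% mitochondrial UMIs against 0.742% and a carry-over fraction of 23.0% against 6.03%, and the part of these was not tested. The 2-month Lpl level was below carry-over (0.72 times), and with carry-over subtracted the log2 ratio of Cd36 went from 2.04 to 2.76. Age differences were not limited to lPRAT. At 6 over 1 month Lpl was 2.63 (1.253 to 6.65) and Cd36 2.24 (1.56 to 3.35) in mPRAT, among 3 higher and 1 lower of 6 tested (29.1% of all genes). In iBAT they were 7.43 (1.95 to 63.0) and 2.31 (1.39 to 4.08), 2 of 3 tested (21.4%). The 1-month Lpl levels rest on 7 and 2 counts and were below carry-over (0.881 and 0.391 times). At 6 over 2 months in mPRAT Lpl was 0.91 (0.61 to 1.401) and Cd36 2.15 (1.58 to 3.00), 1 of 6 against 24%. The Cd36 calls in mPRAT held under 8 of 11 alternatives each. Over 6-month iWAT Lpl was 4.49 (3.92 to 5.17), 1 of 6 against 19.1%, and Cd36 was 1.88. Fabp4 was 228 CPM, 1.83 times carry-over, and did not stand apart. In lymphoid-gated nuclei of this library Lpl was 230 CPM and Cd36 533 CPM, 2.88 and 3.08 times carry-over.

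These macrophage-gated nuclei were also split by single UMIs, which gives ranges and not cell types. The 493 with a UMI of Gpnmb or Atp6v0d2, genes of lipid-laden macrophages, had 1550 CPM of Lpl and 3273 CPM of Cd36, and the 463 without had 473 and 1297 CPM. The folds were 3.28 (2.94 to 3.66) and 2.52 (2.36 to 2.70), beside 0.94 (0.79 to 1.13) for Fabp4. The first set was deeper, with a median of 2729 UMIs against 1280. Of the list of 28, 5 of 19 tested were higher and 2 lower at 6 than at 2 months in lPRAT (34.7% of all genes), led by Lipa (5.58 to 404 CPM), Sort1 (16.7 to 117 CPM), Lrp1 (123 to 530 CPM), an endocytic receptor, and Cavin1 (72.6 to 16.6 CPM). Other macrophage-gated levels of Cd36 were 1.90 to 8.04 times carry-over and its interval was above carry-over in 11 of 11 libraries. That of Lpl was in 7 of 11, and in the cold 0 of 6, 0 of 5 and 0 of 6 genes passed the fold in mPRAT, iBAT and iWAT, against 13.9%, 15.4% and 10.1% of all genes.

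The genes whose log2 level followed that of Lpl most closely over the 12 adipocyte-gated profiles, among 3736 genes with a mean of at least 50 CPM, were Rbm47 (Pearson r 0.97), Echdc1 (0.90) and Papola (0.89). For Mfsd2a they were Spred2 (0.93), Zfp652 (0.93) and Hspa8 (0.92). For Gpihbp1 over 11 endothelial-gated profiles they were Dnaja1 (0.96), Aldoa (0.95) and Cst3 (0.93). These are descriptions over libraries that share depots and depth, were picked as the highest of all genes compared, and carry no p.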

How the data were processed

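The deposited files hold UMI counts per gene and nucleus, which the authors made with Cell Ranger 7.0.0 on mm10, per the submitters' processing notes. Nuclei were sorted on 7-AAD and loaded at about 20000 per 10x 3′ reaction, per the labels' protocols. The 10 genes and all lists were chosen with earlier results of these data known. Nuclei with at least 500 UMIs, 300 genes and at most 10% mitochondrial UMIs were kept, and assigned to 13 classes by marker genes. No doublet caller was run, and 124 to 674 nuclei per library with markers of more than 1 class stayed unassigned. Assignment by whole profiles gave the same class for 98.4% of the gated nuclei. The profiles were summed from those same nuclei with the marker genes kept in, so this is no independent check of the gate. Counts were summed per class and library and scaled to CPM (numpy 2.4.6, scipy 1.17.1, pandas 2.3.3). Fold intervals are exact conditional binomial, CPM intervals exact Poisson and shares exact Clopper-Pearson, and depth sets their width. The code was tested on simulated data. Named genes are the 10, at most 4 per comparison of the list of 28 (the largest log2 ratios past the fold), and the 3 most alike by Pearson r of log2(CPM + 10) for Lpl, Mfsd2a and Gpihbp1. Some genes of that list are counted in it but not reported here by name. Gene positions are from GENCODE M21, and RefSeq gave promoters. Alternatives were another gate, whole-profile classes, no mitochondrial limit, 1000 UMIs, 10 CPM added, the mean CPM of nuclei, centring, TMM scaling (edgeR 4.0.16), no minimum count, the 5% of nuclei richest in UMIs left out, and carry-over subtracted. The blocked tests of cold and of 6 over 2 months over depots (edgeR's quasi-likelihood test, genes with at least 20 counts over the libraries, Benjamini-Hochberg adjustment) were chosen after seeing the data. Whether libraries of different depots come from the same animals is not stated.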

Additional observations from a re-analysis of the deposited data

Results flagged for a closer look

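In 5 cases a gene was higher in one depot and lower in another under the same contrast, with counting intervals off 1 on both sides and a fold of at most 0.8 in one and at least its inverse in another. With 1 library per group the difference between depots was not tested. Angptl8 in adipocyte-gated nuclei at 6 over 2 months had a fold of 1.56 in mPRAT and 0.562 in lPRAT, the latter on 107 and 29 counts. Cd36 in adipocyte-gated nuclei in the cold had a fold of 1.36 in iWAT, 0.749 in mPRAT and 0.771 in iBAT. Angptl4 in endothelial-gated nuclei in the cold had a fold of 1.65 in iBAT and 0.547 in iWAT, on 93 and 28 counts in iBAT and 28 and 42 in iWAT. Lpl in ASPC-gated nuclei in the cold had a fold of 1.93 in iBAT, 1.21 in iWAT and 0.556 in mPRAT, and the iWAT direction turned with carry-over subtracted. These nuclei were not matched between libraries by subset of the gate, and the part of this was not tested. Cd36 in ASPC-gated nuclei at 6 over 2 months had a fold of 3.61 in lPRAT, 0.631 in mPRAT and 0.603 in iBAT, at levels between 0.415 and 1.45 times carry-over.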

How the results depend on the processing

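Pairing by replicate number was not possible, because the groups share no more than 1 replicate number. Cold and age were instead paired by depot, in fits chosen after seeing the data. Leaving out each depot's pair in turn, the number of the 10 genes called in adipocyte-gated nuclei ranged from 0 to 3, with the 3 reached without iWAT, where 5.16% of all genes passed, and was 0 in the other classes. For 6 over 2 months it was 0 in adipocyte-gated nuclei and 0 to 2 in ASPC-gated nuclei, with the 2 reached without lPRAT, where 4.18% of all genes passed. The counts of genes past the fold in 9 comparisons were recomputed 91 times over 11 settings, and 85 stayed within 1.5 times. Only the number of genes was compared here, and which genes were called could change while the number stayed. In adipocyte-gated nuclei the count at 6 over 1 month in mPRAT went from 2 to 1 with the mean CPM of nuclei and to 1 without the 5% of nuclei richest in UMIs. With TMM scaling it went from 3 to 1 at 6 over 2 months in lPRAT and from 2 to 1 for mPRAT over iBAT at room temperature. In endothelial-gated nuclei of iBAT in the cold it went from 2 to 1 with at least 1000 UMIs and to 1 with 10 CPM added. With carry-over subtracted the genes called there changed. Angptl8 and Vldlr went to log2 ratios of 0, and Lmf1 (-2.75) and Angptl4 (1.59) were past the fold. Of 40 adipocyte values past the fold, 11 dropped under it with 10 CPM added and 6 with TMM scaling, and 0 reversed. Of 30 endothelial values 7 dropped under it with the mean CPM of nuclei and 6 with carry-over subtracted, of 22 macrophage values 8 with whole-profile classes, and of 17 ASPC values 5 with 10 CPM added. In ASPC-gated nuclei Angptl8 reversed with carry-over subtracted, to log2 ratios of -0.47 for iBAT in the cold and -0.54 for iBAT over iWAT in the cold, and Scarb1 for lPRAT over iWAT reversed to -0.21 with whole-profile classes. The cause was not tested. Low counts limit Gpihbp1 in iWAT and Mfsd2a in lPRAT and iWAT.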
